A study of Mus musculus with 4 samples.

Results

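A set of 7 genes that take up, store, bind and convert vitamin A was followed in mouse small intestinal organoids and in the crypts from which the organoids were grown. The genes were Rbp2, Lrat, Bcmo1, Isx, Crabp1, Crabp2 and Rdh10. Every array row of these gene names that was not a control was used, which gave 10 probes of 41174 and 7 genes of 28632 gene names. Rbp2, Lrat and Rdh10 had 2 probes each, and the other members had 1 probe each. Bcmo1 is the name in the array files for the gene that RefSeq now calls Bco1.

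The organoids were grown for 1 week in Matrigel under medium with EGF, R-spondin and Noggin, starting from 1 part of each mouse's isolated crypts. The crypts came from the other part, were not cultured, and were the freshly isolated epithelial pits of the small intestine after EDTA treatment and passage through a strainer. There were 2 mice, and their strain, age and genotype are not given in the labels used here. Organoid and crypt RNA of a mouse shared each Agilent 2-colour array, once with the organoid in Cy5 and once with it in Cy3, so 4 arrays gave n = 2 mice. Both materials hold a mixture of epithelial cells, so fewer cells of a type and less RNA per cell cannot be told apart in any value below.

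Vitamin A reaches the intestinal epithelium as retinyl esters and as carotenoids. Beta-carotene is taken up by the scavenger receptor Scarb1 and cleaved to retinal by Bcmo1. Retinal is reduced to retinol, which is held in enterocytes by the carrier Rbp2 and turned into retinyl esters by Lrat for export. A smaller share is oxidised by enzymes such as Rdh10 and the Aldh1a family to retinoic acid, which binds nuclear receptors. In mice, Isx, an intestinal homeobox factor induced by retinoic acid, is known to repress Bcmo1 and Scarb1, which closes a feedback loop.

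The sequences just before the start of Rbp2 and Bcmo1 are shown because these windows held matches to the searched motifs within 100 bases of the start. They run 5′ to 3′, are taken from RefSeq on GRCm38.p6, and lie on the plus strand at chr9:98490437-98490536 and chr8:117095765-117095864. Capitals mark matches to AGGTCA, a half-site of nuclear receptors, or to AGATAA, a site form bound by GATA factors, both of which lie on the minus strand here.
Rbp2: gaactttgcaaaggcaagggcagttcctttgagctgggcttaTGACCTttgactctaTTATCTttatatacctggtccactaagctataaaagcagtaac
Bcmo1: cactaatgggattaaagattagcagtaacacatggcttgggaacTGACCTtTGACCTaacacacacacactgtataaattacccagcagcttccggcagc

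Both strands of the 250 bases before the start were searched for the motif AGGTCA. They were also searched for AGATAA. The last motif was TTTATG, a site form bound by Cdx factors. The Rbp2 window held the nuclear receptor half-site at -58 and the GATA form at -43, counted from the start. The Bcmo1 window held the half-site at -56 and at -49, which lie 1 base apart, and the Cdx form at -236, outside the printed stretch. Of 32851 RefSeq windows of the same length, the half-site was in 14.0%, the Cdx form in 10.8% and the GATA form in 9.99%. The spaced pair AGGTCANAGGTCA, which was searched for after the Bcmo1 window had been read and overlaps both half-sites there, was in 11 windows (0.0335%). The windows of Lrat, Isx and Crabp1 held none of these motifs. A match describes letters and is not a measured binding site.

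The probes that report Rbp2 and Bcmo1 are shown because these genes gave the lowest ratio among the members and the least repeatable one. Their positions in mm9, per the deposited files, are chr9:98408294-98409989 and chr8:119656996-119657055, both on the plus strand. The Rbp2 positions span 1696 bases for a 60-base probe, so the probe reads across a splice junction.
Rbp2 probe: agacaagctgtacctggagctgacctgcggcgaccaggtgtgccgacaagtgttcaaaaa
Bcmo1 probe: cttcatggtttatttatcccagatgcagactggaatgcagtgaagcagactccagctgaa

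Organoids held less RNA of the retinol carrier and of the esterifying enzyme than crypts, and more of the retinol dehydrogenase and of the homeobox regulator. Rbp2 was 3.14-fold and Lrat 1.95-fold lower in organoids, while Isx was 1.76-fold and Rdh10 1.60-fold higher. Bcmo1 did not pass the test, and neither Crabp1 nor Crabp2 rose well above background on any array. Of the 7 members, 5 were tested and 4 passed at an adjusted p under 0.05 (limma, Benjamini-Hochberg over 15534 genes), 2 higher and 2 lower. Over all genes tested, 11.0% passed, 5.47% higher and 5.49% lower, and the median log2 ratio was 0.02. Members entered the test if a probe was well above background in all 4 channels of organoid or of crypt RNA. The 5 tested members met this in both tissues.

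**Figure D1:**
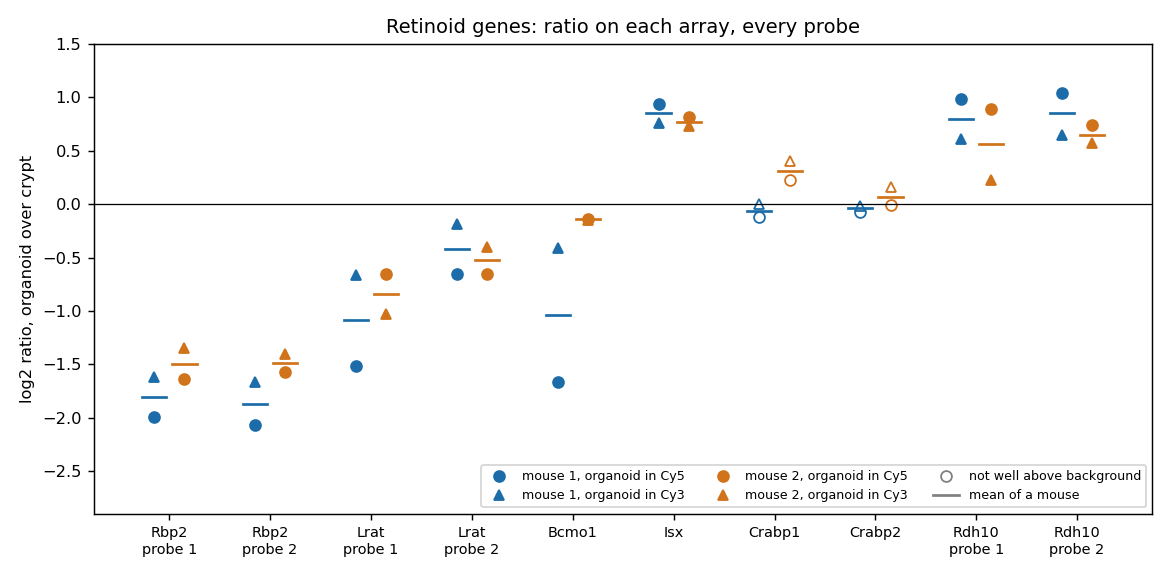
Log2 ratio of organoid over crypt (vertical axis) for each of the 10 probes, with circles for arrays with organoid RNA in Cy5, triangles for organoid RNA in Cy3, colours for the mice and bars for the mean of a mouse's 2 arrays. Every Rbp2, Lrat and Bcmo1 value lies below 0 and every Isx and Rdh10 value above it. The Crabp1 and Crabp2 probes (open symbols) were not well above background.

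Rbp2, the abundant cellular retinol-binding protein of enterocytes, had the lowest ratio of the members. Its turned log2 ratios were -1.99 and -1.62 on the arrays of mouse 1 and -1.64 and -1.35 on those of mouse 2. All 4 arrays lay below 0, and both dye orientations gave the same direction. Such a shared direction on all 4 arrays was found for 47.1% of all genes tested. The normalized log2 intensity of this probe was 11.49 and 11.56 in organoids of mice 1 and 2, against 13.30 and 13.06 in their crypts. Organoid and crypt levels did not overlap, and the organoid levels of the mice lay close together. The mean log2 ratio was -1.65 ± 0.22 (SD, n = 2; 95% interval -2.02 to -1.28; limma adjusted p = 0.00478). The other Rbp2 probe, at chr9:98410012-98410071 (mm9), gave -1.68 ± 0.27 (SD, n = 2). Of all genes tested, 1.11% had a ratio at least as low.

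Lrat, the enzyme that joins retinol to a fatty acid taken from lecithin, was also lower in organoids. Its ratios were -1.52 and -0.66 in mouse 1 and -0.65 and -1.03 in mouse 2, all below 0, with the lowest value on the first array of mouse 1. Its normalized log2 intensity was 8.25 and 8.42 in organoids, against 9.34 and 9.26 in crypts, with no overlap. The mean log2 ratio was -0.97 ± 0.18 (SD, n = 2; 95% interval -1.32 to -0.61; limma adjusted p = 0.0168). This probe lies on the minus strand at chr3:82696805-82696864 (mm9). The dimmer second Lrat probe, at chr3:82699609-82699668, was well above background in 3 of 4 organoid channels and gave -0.47 ± 0.08 (SD, n = 2). Both probes pointed the same way, and the size of the Lrat difference depended on the probe.

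Bcmo1, which cleaves beta-carotene, was the member on which the mice differed. Its ratios were -1.67 and -0.41 in mouse 1 and -0.14 and -0.15 in mouse 2. The means of the mice were -1.04 and -0.14, and only 3.59% of the genes tested had mice that differed by as much. The mean log2 ratio was -0.59 ± 0.63 (SD, n = 2; 95% interval -1.19 to 0.00), with an unadjusted p of 0.0513 and an adjusted p of 0.184 by limma, so it did not pass. The organoid levels of the mice were close, with normalized log2 intensities of 7.74 and 7.68, against 8.78 and 7.82 in crypts. The crypt levels thus differed between the mice by 0.96, a gap that 0.702% of genes matched or passed. The organoid levels differed by 0.06, which 81.5% of genes matched or passed. The gap between the mice thus lay in the crypt values, and within mouse 1 the dye orientations also differed. Its spots had mean signals of 295, 161, 251 and 164 in the organoid channels of the 4 arrays, against 382, 783, 173 and 339 in the crypt channels, before background correction. The Crabp1 probe, which was not well above background, had 210, 127, 222 and 130 in the same organoid channels. The organoid signals of Bcmo1 were thus low, and the part of this in the close organoid levels was not tested.

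Isx, the homeobox factor that is known in mice to repress Bcmo1 and Scarb1, was higher in organoids. Its ratios were 0.94 and 0.76 in mouse 1 and 0.82 and 0.73 in mouse 2, the tightest set of the tested members. The normalized log2 intensity was 14.60 and 14.42 in organoids, against 13.75 and 13.65 in crypts, and the tissues did not overlap. The mean log2 ratio was 0.81 ± 0.05 (SD, n = 2; 95% interval 0.48 to 1.14; limma adjusted p = 0.0215). The probe lies at chr8:77417314-77417373 (mm9) on the plus strand. Isx and Bcmo1 were therefore measured with opposite signs on each array, but only the Isx ratio passed the test. Their dependence on each other was not tested.

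Rdh10, a dehydrogenase of the endoplasmic reticulum that oxidises retinol to retinal on the way to retinoic acid, was also higher in organoids. Its ratios were 0.98 and 0.61 in mouse 1 and 0.89 and 0.23 in mouse 2, with the lower value of each mouse on the array that carried organoid RNA in Cy3. The normalized log2 intensity was 10.36 and 10.13 in organoids, against 9.56 and 9.57 in crypts, without overlap. The mean log2 ratio was 0.68 ± 0.17 (SD, n = 2; 95% interval 0.33 to 1.03; limma adjusted p = 0.0413). The second Rdh10 probe, at chr1:16122062-16122121 (mm9), gave 0.75 ± 0.14 (SD, n = 2), and the first lies at chr1:16121478-16121537.

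Crabp1 and Crabp2 are the cellular retinoic acid-binding proteins, which pass retinoic acid to degrading enzymes and to its receptors. Neither probe was well above background in any organoid or crypt channel, so no ratio is given for them. Of the 7 stroma markers, Col1a2 and Vim were well above background in all 8 channels, Col1a1 and Col3a1 in some channels, and Pdgfra, Dcn and Lum in none. Because neither Crabp probe was well above background, these arrays set no level for either Crabp gene in organoids or in crypts.

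**Figure D2:**
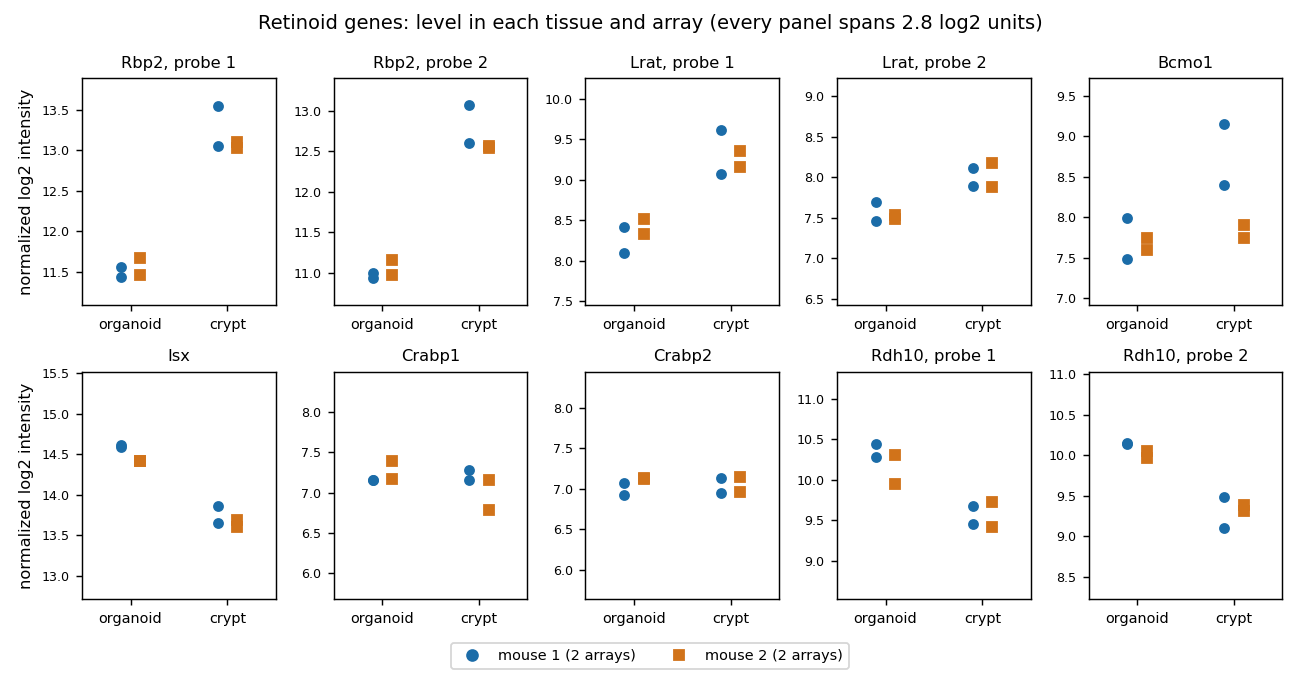
Normalized log2 intensity (vertical axis, each panel spanning 2.8 log2 units) of every probe in organoid RNA (left) and crypt RNA (right), with circles for mouse 1 and squares for mouse 2, 2 arrays each. The organoid points lie below the crypt points for Rbp2 and Lrat and above them for Isx and Rdh10, and the crypt points of Bcmo1 separate by mouse. Levels of different probes are not comparable with each other.

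**Figure D3:**
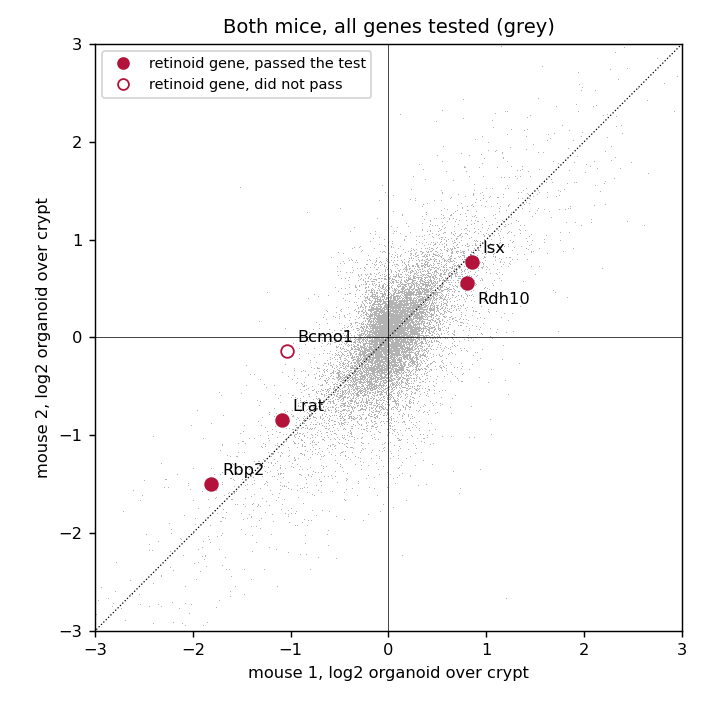
Log2 ratio of organoid over crypt in mouse 1 (horizontal axis) and mouse 2 (vertical axis) for all 15534 genes tested (grey), with the 5 tested members in red and the dotted line at equal values. Rbp2, Lrat, Isx and Rdh10 lie near the line, whereas Bcmo1 has -1.04 in mouse 1 and -0.14 in mouse 2, and 63 genes lie beyond the axes.

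The calls of the members depended on the way the arrays were processed. The directions of the 5 tested members held under all 13 alternatives, although many of these could not change a direction. Bcmo1 passed under none of the 11 alternatives that gave a test. Centring each array on its median in place of loess left none of the members past the test, with adjusted p-values of 0.104 for Rbp2, 0.323 for Lrat, 0.179 for Isx and 0.366 for Rdh10. Over the 11 alternatives the limma adjusted p ran from 0.000377 to 0.104 for Rbp2, 0.012 to 0.323 for Lrat, 0.00227 to 0.179 for Isx and 0.0111 to 0.366 for Rdh10. The scanner software's own ratio gave larger differences for Lrat and Bcmo1, with -1.55 for Lrat (adjusted p = 0.0503) and -1.39 for Bcmo1 (adjusted p = 0.236), where the mice had -2.57 and -0.20. With that ratio Isx (adjusted p = 0.0604) and Rdh10 (adjusted p = 0.0654) did not pass either. Rdh10 fell short as well on the arrays with organoid RNA in Cy3 alone, with 0.42 and an adjusted p of 0.199.

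**Figure D4:**
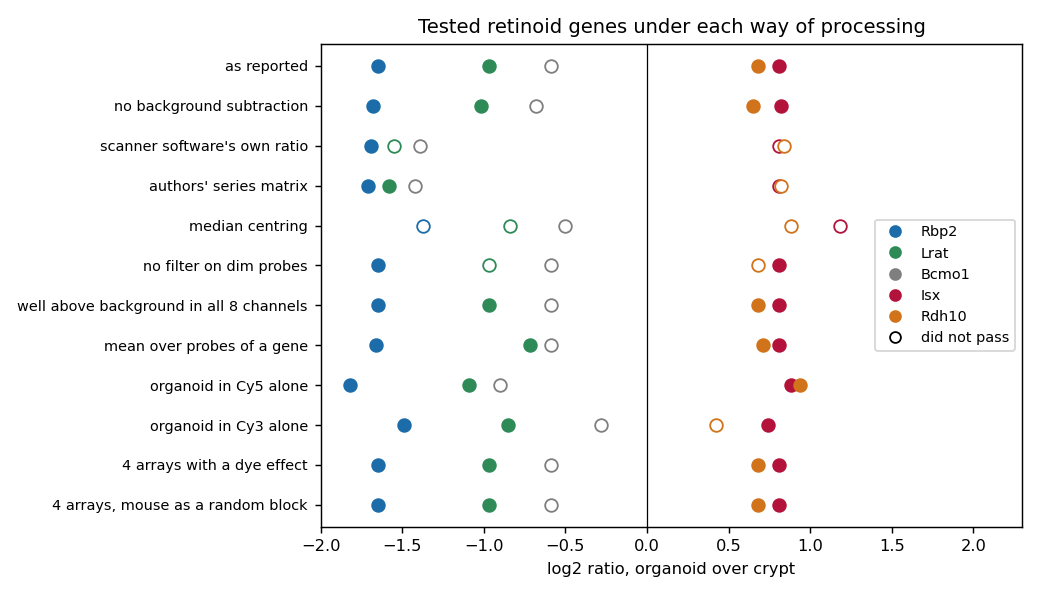
Log2 ratio of organoid over crypt (horizontal axis) of the 5 tested members under the reported processing and 11 alternatives (rows), with filled points for an adjusted p under 0.05 and open points otherwise. All Rbp2, Lrat and Bcmo1 points lie below 0 and all Isx and Rdh10 points above it, and only the row for median centring has no filled point.

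Enterocytes are the absorptive cells of the epithelium, and 9 of 10 enterocyte markers were lower in organoids. Lct, the milk-sugar hydrolase lactase, had the lowest log2 ratio of the 10, -4.47 ± 0.06 (SD, n = 2; limma adjusted p = 0.00112), and the highest was -0.35. Vil1, a brush border protein, had -1.56 ± 0.13 (SD, n = 2; limma adjusted p = 0.00464). The median of the 10 markers was -2.06, and their summed linear level was 235000 and 219000 in organoids of mice 1 and 2, against 773000 and 697000 in crypts. Such a sum weights the brightest probes most, here Fabp2 with a log2 level of 17.69 in crypts of mouse 1, and does not measure cell content. None of the 10 was at 0, and all were well above background in both tissues. Of 7 epithelium-wide markers, 1 passed as higher and 3 as lower, and Epcam, a surface protein of epithelial cells, had -0.59 ± 0.05 (SD, n = 2; limma adjusted p = 0.0503). Markers of some other cell types moved as well, but not of all. Of 5 tested enteroendocrine cell markers 1 passed, as lower, with a median of -0.07. Of 3 tested tuft cell markers 0 passed, with a median of 0.18. All 4 Paneth cell markers were lower in organoids, with a median of -2.22 and Lyz1, a lysozyme, at -2.92 ± 0.11 (SD, n = 2; limma adjusted p = 0.00142). Of 5 goblet cell markers 4 were lower, with a median of -1.65 and Muc2, the main secreted mucin, at -1.25 ± 0.63 (SD, n = 2; limma adjusted p = 0.0328). Of 4 markers of crypt base stem cells 2 were higher, with a median of 0.43 and Lgr5, an R-spondin receptor, at 2.29 ± 0.05 (SD, n = 2; limma adjusted p = 0.00191). The other 2, Olfm4 and Ascl2, had -0.09 and -0.22 and did not pass. Rbp2 and Lrat were lower in organoids, while Isx, Rdh10 and the uptake receptor Scarb1 were higher, at 0.81, 0.68 and 1.01. The part of cell type shares in the values of the members and of Scarb1 was not tested. Of 8 white blood cell markers 2 passed as lower in organoids, both of them tested through the crypt channels alone and well above background in 0 of 4 organoid channels. Their list had summed levels of 1710 and 1840 in organoids, against 2320 and 2160 in crypts. Of 7 stroma markers 2 were tested and neither passed, with summed levels of 911 and 1310 in organoids, against 921 and 1040 in crypts. In organoids of mice 1 and 2, Col1a2 had log2 levels of 7.79 and 7.93, and Cd52, a white blood cell marker, 7.10 and 7.05. The Crabp1 probe, which was not well above background, had 7.16 and 7.28 there. The white blood cell and stroma sums thus partly hold background signal and do not measure cell content.

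Other genes of vitamin A metabolism were taken from 7 lists with 63 genes in all, of which 61 had a probe and 45 were tested. Of these 45, 11 were higher and 8 lower in organoids, which is 42.2% called against 11.0% of all genes, and their median log2 ratio was 0.00 against 0.02. Rarb, Cyp26b1 and Rdh16 met the filter only through the tissue in which they were higher. With genes well above background in all 8 channels alone, 9 were higher and 7 lower, and 1608 of all 14378 genes passed under that filter. The lists were chosen with earlier results of these data known, and 6 genes stand in more than 1 list. Rbp7, Ces1d, Adh1, Aldh1a1 and Aldh1a7 passed under all 11 alternatives that gave a test, and the other 14 lost the call under at least 1, median centring included. Values of genes dim in 1 tissue moved over wide ranges, 0.41 to 2.57 for Cyp26b1, 0.59 to 1.86 for Rarb and -2.63 to -0.34 for Rdh16 over the alternatives.

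Among 7 tested genes of uptake and binding, 2 were higher and 2 lower. Scarb1, the receptor through which carotenoids enter, was higher in organoids at 1.01 ± 0.20 (SD, n = 2; limma adjusted p = 0.0157). Its normalized log2 intensity was 10.11 in organoids of both mice, against 9.24 and 8.95 in crypts. Scarb1 thus rose beside its known repressor Isx, and whether the changes are linked was not tested. Rbp7, a cellular retinol-binding protein related to Rbp2, was lower at -2.75 ± 0.26 (SD, n = 2; limma adjusted p = 0.00181), with levels of 10.47 and 10.79 in organoids, against 13.41 and 13.35 in crypts. A second Rbp7 probe gave -2.43. Bco2, which cleaves carotenoids off centre, was lower at -0.76 ± 0.17 (SD, n = 2; limma adjusted p = 0.0306). Stra6l, a receptor for retinol bound to its plasma carrier, was higher at 1.00 ± 0.34 (SD, n = 2; limma adjusted p = 0.023), although its other probe gave 0.37.

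Among 7 tested genes of retinyl ester synthesis and hydrolysis, 1 was higher and 2 were lower. Dgat1, an acyltransferase that esterifies retinol alongside Lrat, was lower in organoids at -1.05 ± 0.47 (SD, n = 2; limma adjusted p = 0.0322), and its second probe gave -1.06. Lipe, a hormone-sensitive lipase that hydrolyses retinyl esters in fat tissue, was lower at -0.73 ± 0.14 (SD, n = 2; limma adjusted p = 0.0327). Both genes that esterify retinol and were tested, Lrat and Dgat1, were thus lower in organoids. Ces1d, a carboxylesterase able to hydrolyse retinyl esters, was higher at 1.63 ± 0.07 (SD, n = 2; limma adjusted p = 0.00397). The Ces1 genes are close copies, and a probe may read more than 1 of them.

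Of 14 tested oxidoreductases of retinol and retinal, 3 were higher and 1 was lower. Adh1, an alcohol dehydrogenase that also oxidises retinol, was higher in organoids at 1.47 ± 0.24 (SD, n = 2; limma adjusted p = 0.00666), and a second probe gave 1.54. Rdh11, which reduces retinal, was higher at 1.16 ± 0.18 (SD, n = 2; limma adjusted p = 0.0106), and Adh5, a broadly expressed dehydrogenase, at 0.93 ± 0.08 (SD, n = 2; limma adjusted p = 0.0157). Rdh16, a member of a family of close copies, was lower at -0.63 ± 0.14 (SD, n = 2; limma adjusted p = 0.0468), but it was well above background in only 1 of 4 organoid channels.

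Of 4 tested genes of retinoic acid synthesis and clearance, 3 were higher in organoids, against 5.47% of all genes. Of the 3, Cyp26b1 met the filter through the organoid channels alone. Aldh1a1, which oxidises retinal to retinoic acid, was higher at 1.44 ± 0.03 (SD, n = 2; limma adjusted p = 0.00502), with levels of 14.51 and 13.90 in organoids, against 13.09 and 12.43 in crypts. Aldh1a7, a close copy of Aldh1a1, was higher at 1.84 ± 0.08 (SD, n = 2; limma adjusted p = 0.00319), and signal of 1 copy on the other's probe cannot be told apart here. Cyp26b1, which degrades retinoic acid, was higher at 0.87 ± 0.32 (SD, n = 2; limma adjusted p = 0.0323) and was well above background in 2 of 4 crypt channels. Aldh8a1, the remaining tested gene of this list, had 0.02 ± 0.15 (SD, n = 2; limma adjusted p = 0.956).

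Of 4 tested receptors of retinoic acid, 1 passed. Rarb, a receptor whose own gene is induced by retinoic acid, was higher in organoids at 0.84 ± 0.28 (SD, n = 2; limma adjusted p = 0.0313), with 2 of 4 crypt channels well above background. Its level was 9.58 and 7.88 in organoids of mice 1 and 2, against 8.55 and 7.24 in crypts, so the mice differed by more than the tissues and the levels overlapped. Rarg had 0.20 ± 0.46, Rxra -0.28 ± 0.22 and Rxrb -0.07 ± 0.26 (SD, n = 2 each), and none of these passed. Of 8 tested genes in the list of those induced by retinoic acid, which leaves out the member Isx, 2 were higher, Rarb and Cyp26b1, and 2 were lower. Tgm2, a transglutaminase, was lower at -0.64 ± 0.05 (SD, n = 2; limma adjusted p = 0.0408), and Nrip1, a corepressor of nuclear receptors, at -0.66 ± 0.16 (SD, n = 2; limma adjusted p = 0.0442), with its other probes at -1.17 to -0.08. Rarb and Cyp26b1 met the filter through the organoid channels alone, so their count as higher is not set against the count of lower genes.

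Of 5 transcription factors known to act at member genes, 1 was higher and 1 lower. The median log2 ratio of the 5 was -0.57, and the 3 that did not pass also had ratios below 0. Pparg, a related receptor, was higher in organoids at 0.97 ± 0.13 (SD, n = 2; limma adjusted p = 0.0153). Ppara, a nuclear receptor for fatty acids, was lower at -0.71 ± 0.23 (SD, n = 2; limma adjusted p = 0.0422).

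**Figure D5:**
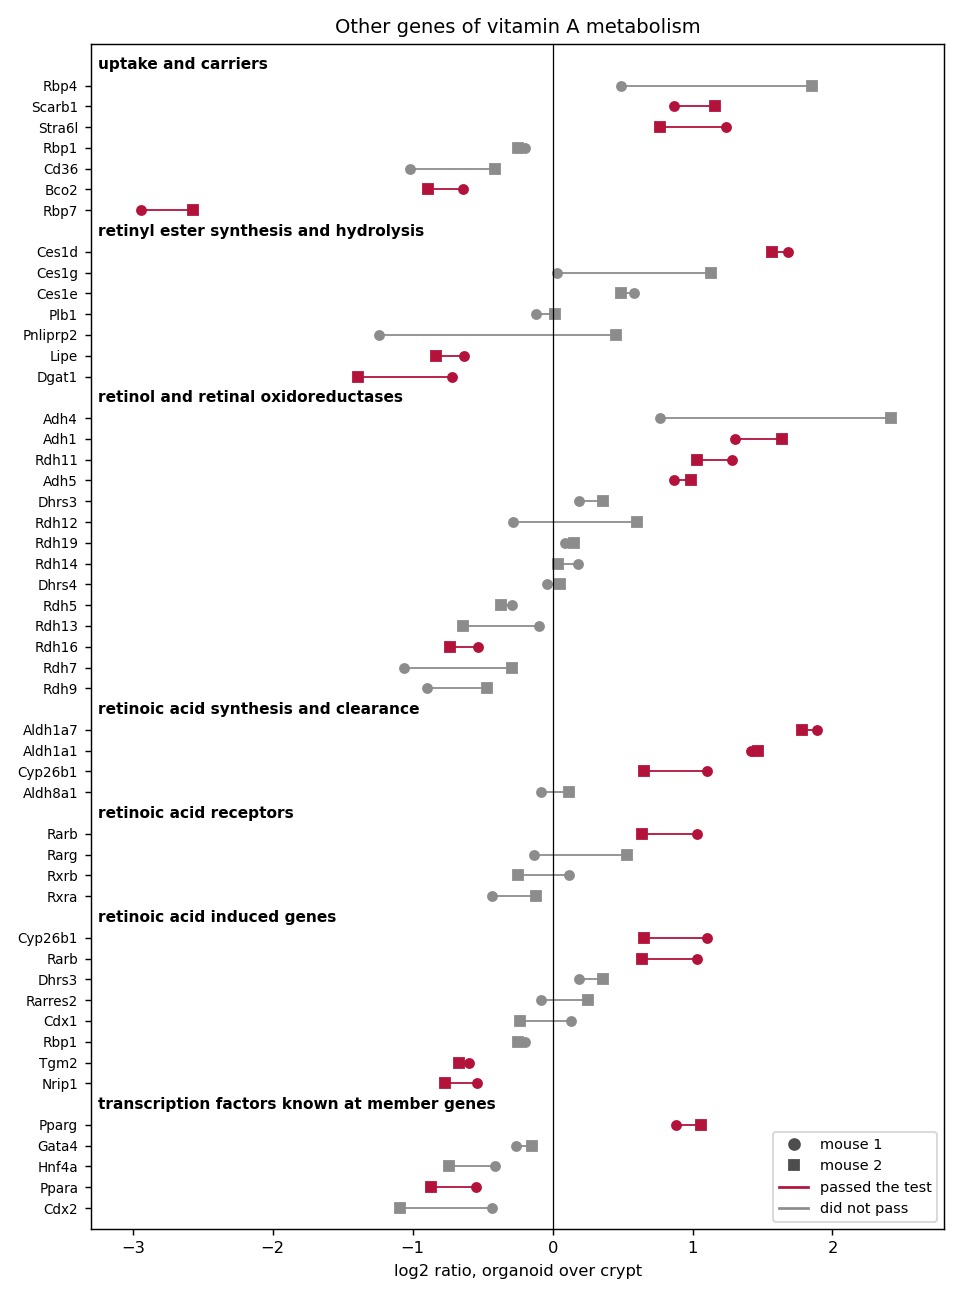
Log2 ratio of organoid over crypt (horizontal axis) of the tested pathway genes in mouse 1 (circles) and mouse 2 (squares), grouped by list, with red for genes past the test and grey for the others. Aldh1a1, Aldh1a7, Ces1d and Adh1 lie to the right in both mice, and Rbp7 lies farthest to the left.

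The genes nearest to each tested member were found by the distance between their 4 array ratios, among 15533 other genes. Nearest to Rbp2 were C1qtnf12 (distance 0.21), Fcgbp (0.22) and Gpx1 (0.23), a glutathione peroxidase. Nearest to Lrat were Gja5 (0.19), Fstl3 (0.20) and Rhod (0.23), which share its low value on the first array of mouse 1. Nearest to Bcmo1 were Igl-V1 (0.24), Agt (0.26) and EG668450 (0.40), each with a lower ratio in mouse 1 than in mouse 2. Igl-V1 had -1.45, -0.39, -0.05 and -0.20 on the 4 arrays. Near Isx were LOC624863 (0.04) and Acss2 (0.14). Nearest to Rdh10 were B230219D22Rik (0.14), Zfp46 (0.14) and 1810063B05Rik (0.16). These distances describe 4 arrays of 2 mice and carry no test.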

How the data were processed

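Organoid and crypt RNA of 2 mice was read on 4 Agilent 2-colour arrays. The deposited intensity columns give each spot's mean signal and local median background in both dyes. The deposited log10 ratios (Cy5 over Cy3) were made by the scanner software, Feature Extraction 10.2.1.3 per the file headers and 9.5.3 per the submitters' processing notes. The authors' deposited matrix holds log2 ratios (Cy5 over Cy3), with its centring unknown. The labels name Trizol and the design text an RNeasy kit for RNA isolation, so the kit is not settled.

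Intensities were corrected by normexp (offset 50) and loess in limma 3.58.1 (R 4.3.3), with weight 0 for control spots and outlier-marked spots dropped. The sign of each ratio was set to organoid over crypt from the labels' dyes. The mean of each mouse's dye-swapped arrays entered lmFit and eBayes (two-sided, 1 residual and 4.20 prior degrees of freedom), and the brightest tested probe stood for a gene. Levels were read after loess and Aquantile. The dye-swapped pairs had r = 0.837 and 0.850 across genes, and 51.4% to 67.2% of probes per channel were well above background. RefSeq accessions (GRCm38.p6) named 24844 of 41174 probes. The fit was tested on simulated data. The p-values and intervals combine the spread of the 2 mice with a spread pooled over all genes (prior SD 0.202).

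The members and lists were chosen with earlier results of these data known. Named genes were all members, every pathway gene past the test, the tested receptors and synthesis and clearance genes, 1 to 3 genes of a marker list, and the 3 genes nearest to each member, of which 1 is not reported here. RefSeq's promoter table held 5 of the 7 members. The promoters of Rdh10 and Crabp2 were not used here.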

Additional observations from a re-analysis of the deposited data

How the results depend on the processing

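The directions of Rbp2, Lrat, Bcmo1, Isx and Rdh10 held under all 13 alternatives, but many of these could not change a direction. The changed filters on dim probes, the dye term and the mouse block kept the estimates of these genes as reported. The single-dye and single-mouse settings used arrays that already shared 1 direction for each of these genes. The count of members past the test, 4 as reported, was 1 with the scanner software's own ratio, 2 with the authors' series matrix, 2 with no filter on dim probes and 0 with median centring. It was 3 with organoid RNA in Cy3 alone and 4 under the others that gave a test. The count over all genes, 1703 as reported, was 230 with median centring, 677 with no filter on dim probes, 906 with the Cy3 organoid arrays alone, 3709 with all 4 arrays fitted with a term for dye, and 3081 with mouse as a random block over them. The last 2 take a mouse's arrays as more than 1 sample or estimate their correlation from 2 mice. The count of pathway genes, 19 as reported, was 5 with median centring, 8 with no filter and 9 with Cy3 alone. The causes of these changes were not tested. Median centring moved the median of all genes by 0.14, and relative to its median Rbp2 stood at -1.54, Lrat at -1.0, Isx at 1.01 and Rdh10 at 0.71. For the 28 single genes, 305 values under an alternative had a test, of which 66 fell short of a threshold passed as reported and 239 stayed on their side. No gene that had passed changed sign, and 9 values of Aldh8a1, Rarg, Rxra and Rxrb, which had not passed, did. Each mouse alone gives a value and no test, and these were -1.81 and -1.50 for Rbp2, -1.09 and -0.84 for Lrat, -1.04 and -0.14 for Bcmo1, 0.85 and 0.77 for Isx, and 0.80 and 0.56 for Rdh10. A slide block was not run because all 4 arrays lie on 1 slide and were read in 1 scan. The reported fit is paired by mouse, since each array gives the ratio within a mouse. Signal over background leaves Crabp1 and Crabp2 without a level.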

Other observations

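Several genes of vitamin A metabolism had ratios that differed between the mice as Bcmo1 did, and they were picked after their values were seen. Rbp4, the plasma carrier of retinol, had log2 ratios of organoid over crypt of 0.49 in mouse 1 and 1.85 in mouse 2 (limma adjusted p = 0.0869). Its normalized log2 intensity was 10.49 and 11.64 in organoids, against 10.00 and 9.79 in crypts. Adh4, an alcohol dehydrogenase active on retinol, had 0.77 and 2.42 (limma adjusted p = 0.0634), with levels of 11.77 and 12.11 in organoids, against 11.00 and 9.69 in crypts. Pnliprp2, a lipase of the pancreatic family, had -1.24 and 0.45 (limma adjusted p = 0.59), with levels of 11.65 and 12.29 in organoids, against 12.89 and 11.84 in crypts. In Adh4 and Pnliprp2, as in Bcmo1, the crypt levels of the mice lay farther apart than the organoid levels, while in Rbp4 the organoid levels lay farther apart.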
